A study of Mus musculus with 8 samples.

Results

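Haemoglobin and erythroid genes were examined in the lumbar spinal cord of SOD1G93A mice through 5 rows of the raw count table, chosen by gene symbol: the adult alpha globin genes Hba-a1 and Hba-a2, the adult beta globin genes Hbb-bs and Hbb-bt, and Alas2, the erythroid form of the first enzyme of haem synthesis. These were 5 of 55291 genes in the table. All 5 were among the 19470 genes that passed the filter on low counts.

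RNA-seq was performed on polyadenylated RNA from the whole lumbar cord of 8 male mice. All 8 carried the human SOD1G93A transgene, a model of amyotrophic lateral sclerosis, on a C57BL/6J background, together with 1 Cx3cr1 Cre/+ allele, which drives a tamoxifen-inducible recombinase in microglia and other Cx3cr1-expressing cells. In 4 mice Ager, the gene encoding the receptor RAGE, was floxed on both alleles (Ager fl/fl Cx3cr1 Cre/+, here Ager-deleted: E1776, E5231, E5248 and E5568), and 4 mice had intact Ager (Ager +/+ Cx3cr1 Cre/+, here Cre-controls: E5386, E5642, E6578 and E6732). Every mouse, control mice included, received 5 daily injections of 0.2 µg tamoxifen at 12 weeks of age, and the labels give an age of 120 days at collection, whereas the study describes mice taken at a humane endpoint. Recombination was thus aimed at Cx3cr1-expressing cells while RNA came from the whole cord, and the comparison had no mice without the transgene or without tamoxifen. The described collection of the cords for RNA names no perfusion step, which the study's methods do name for histology.

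Adult haemoglobin is a tetramer of alpha and beta globin chains, each holding a haem. Mature mammalian red cells have no nucleus, and globin mRNA in circulating blood is carried mainly by reticulocytes, the young red cells that still hold RNA made in the bone marrow. Alas2 is made in erythroid cells in place of the housekeeping enzyme encoded by Alas1. In a bulk tissue such as cord, globin and Alas2 mRNA are therefore usually read as a measure of the blood that came with the tissue, although globin mRNA in neurons and glia has been described.

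Total counts ranged from 31148047 to 40324897 per mouse. Ager was between 0.889 and 1.51 CPM (counts scaled to library size) in the Ager-deleted cords and between 1.53 and 2.41 CPM in the Cre-controls, so the groups did not overlap. Markers of the labelled tissue were high in every mouse, with a summed level of 2170 to 3240 CPM for 6 neuronal genes and 25100 to 31600 CPM for 6 glial genes. Some control libraries held transcripts of other tissues: the summed level of 9 skeletal muscle genes was 877 CPM in E5386 and 1433 CPM in E5642 against 8.16 to 26.4 CPM in the other 6 mice, and 4 liver genes summed to 564 CPM in E6732 against 2.41 to 3.19 CPM elsewhere. The 2 tested adipose genes, Car3 and Fabp4, summed to 157 CPM in E5386, 55.6 CPM in E5642 and 22.3 CPM in E6732 against 2.69 to 7.12 CPM in the rest. Most of that sum was Car3 in E5642 (49.15 CPM) and in E6732 (20.0 CPM). Fabp4 was at 109, 6.39 and 2.29 CPM in E5386, E5642 and E6732. Adipoq, Plin1, Cidec and Ucp1, which failed the filter, were at 6.89 to 42.2 CPM in E5386 and at no more than 0.25 CPM elsewhere. Lep had at most 2 counts. Of the muscle genes Myh4, Ckm and Atp2a1 passed the exact test between genotypes, with adjusted p of 0.0105, 0.0281 and 0.0294, and no gene of the other lists did. Results on the globin genes are therefore also given without these mice.

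The globin genes lie in 2 clusters. In the GENCODE M21 annotation of GRCm38, Hba-a1 spans chr11:32283511-32284465 and Hba-a2 chr11:32296489-32297298, both on the forward strand. Hbb-bs spans chr7:103826534-103828096 and Hbb-bt chr7:103812524-103813996 on the reverse strand. Alas2 spans chrX:150547375-150570638 on the forward strand and overlaps Apex2 and Mir3620 on the other strand. The 250 bases before the RefSeq start of each gene (GRCm38.p6) are printed 5′ to 3′ along the gene. This start lies inside the GENCODE span of each of the 5 genes, so the windows overlap the spans given above. Motif distances are counted from the RefSeq start. Whether these sequences bear on the levels across mice was not tested. Capitals mark 4 short motifs on either strand. The TATA box core was searched as ATATAA, which reads TTATAT on the other strand. The CCAAT box was searched by that name, and it reads ATTGG on the other strand. The CACCC box was likewise searched by its name, with GGGTG as its other strand. The GATA motif was searched as GATAA, for which the other strand reads TTATC. In Hbb-bt a reverse and a forward copy of the second motif lie end to end.

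Hba-a1 (chr11:32283422-32283671, forward strand): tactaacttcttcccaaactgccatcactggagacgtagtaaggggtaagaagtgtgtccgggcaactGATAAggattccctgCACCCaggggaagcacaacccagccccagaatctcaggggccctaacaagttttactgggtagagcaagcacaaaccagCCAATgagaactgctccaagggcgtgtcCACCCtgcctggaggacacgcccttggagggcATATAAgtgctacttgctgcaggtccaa

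Hba-a2 (chr11:32296242-32296491, forward strand): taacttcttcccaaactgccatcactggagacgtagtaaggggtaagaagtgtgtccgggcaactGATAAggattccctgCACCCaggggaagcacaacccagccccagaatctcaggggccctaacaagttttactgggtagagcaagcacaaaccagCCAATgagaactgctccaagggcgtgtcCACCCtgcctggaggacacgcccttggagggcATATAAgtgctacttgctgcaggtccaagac

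Hbb-bs (chr7:103827929-103828178, reverse strand): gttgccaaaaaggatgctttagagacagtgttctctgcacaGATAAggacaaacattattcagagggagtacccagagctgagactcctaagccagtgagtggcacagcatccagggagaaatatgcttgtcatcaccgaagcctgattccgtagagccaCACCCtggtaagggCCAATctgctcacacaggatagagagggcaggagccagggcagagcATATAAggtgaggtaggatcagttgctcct

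Hbb-bt (chr7:103813924-103814173, reverse strand): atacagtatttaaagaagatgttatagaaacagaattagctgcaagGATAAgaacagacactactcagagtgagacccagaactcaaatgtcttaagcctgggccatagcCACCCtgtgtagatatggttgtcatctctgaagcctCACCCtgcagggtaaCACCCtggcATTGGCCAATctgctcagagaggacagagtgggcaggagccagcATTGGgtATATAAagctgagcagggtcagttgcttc

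Alas2 (chrX:150547167-150547416, forward strand): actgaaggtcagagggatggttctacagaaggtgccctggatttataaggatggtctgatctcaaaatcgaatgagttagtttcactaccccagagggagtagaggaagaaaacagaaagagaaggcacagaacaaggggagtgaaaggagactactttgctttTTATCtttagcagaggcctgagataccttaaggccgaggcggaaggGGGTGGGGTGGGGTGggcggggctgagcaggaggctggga

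The windows of Hba-a1 and Hba-a2, which are offset by a few bases, were identical in 247 of 247 aligned bases, whereas those of Hbb-bs and Hbb-bt were identical in 178 of 243 (73.3%). GATAA, the core of the motif bound by GATA factors, and CACCC, the core of the motif bound by factors of the Klf family, were present in 5 of 5 windows. These letters also occurred in 22.6% and 52.0% of all 32851 RefSeq promoter windows cut to the same length. ATATAA was present in the 4 globin windows, 28 to 31 bases before the start, and in 9.1% of all windows. CCAAT was present in the 4 globin windows and in 33.8% of all windows. In Alas2 both matching motifs were on the reverse strand, GATAA at 86 bases before the start and CACCC at 30 to 40 bases before it. A match describes letters in the window and was not tested as a binding site.

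The near identity of the copies extends into the transcripts. Of all 50-base windows of the Hba-a1 transcript, 67.5% also occur in Hba-a2, and 86.9% of those of Hba-a2 occur in Hba-a1. For Hbb-bs and Hbb-bt the shares were 65.8% and 58.3%. How the counting treated reads that match both copies is not given in the sources used here, so the split of counts within each pair is uncertain, and each pair is also given as a sum.

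Red cell transcripts were present in every cord, and their level differed severalfold between mice of the same genotype. All 5 genes were lowest in the Ager-deleted mouse E1776 and highest in the Cre-control E6578. Mean levels were higher in Cre-controls for each gene, by 0.48 to 0.65 on the log2 scale, but no gene passed the test and the genotypes overlapped for each of them.

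Hbb-bs, an adult beta globin gene, had the highest counts of the 5. Its level was 42.6, 172, 107 and 157 CPM in Ager-deleted E1776, E5231, E5248 and E5568. In Cre-control E5386, E5642, E6578 and E6732 it was 78.6, 173, 274 and 182 CPM. E1776 and E5386 were low within their genotypes, 1 mouse in each. The other 3 controls lay above all Ager-deleted mice, E5642 only just. The mean was 119.7 ± 58.5 CPM (SD, n = 4) in Ager-deleted and 177.1 ± 79.9 CPM (SD, n = 4) in Cre-control mice. The log2 fold change, always Cre-control over Ager-deleted, was 0.56 (SE 0.426, 95% interval −0.381 to 1.51). It did not pass edgeR's exact test (adjusted p = 1).

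Hbb-bt, the second adult beta gene, measured 9.52, 37.7, 18.7 and 36.0 CPM in E1776, E5231, E5248 and E5568. The Cre-controls were at 20.0, 40.0, 54.9 and 44.7 CPM. Again 3 of 4 controls lay above all Ager-deleted mice, and E5386 lay among them. Means were 25.5 ± 13.7 and 39.9 ± 14.7 CPM (SD, n = 4 each). The log2 fold change of 0.65 (SE 0.408, 95% interval −0.258 to 1.55) was the highest of the 5 and did not pass the exact test (adjusted p = 1).

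Hba-a1 was at 10.3, 37.9, 19.7 and 39.6 CPM in Ager-deleted mice. In Cre-controls it was at 17.2, 38.0, 53.6 and 44.4 CPM. Only E6578 and E6732, 2 of 4 controls, exceeded every Ager-deleted mouse. Means were 26.9 ± 14.3 and 38.3 ± 15.5 CPM (SD, n = 4 each), a log2 fold change of 0.51 (SE 0.420, 95% interval −0.424 to 1.44; exact test, adjusted p = 1). Its near copy Hba-a2 was at 5.38, 15.1, 7.62 and 16.5 CPM in Ager-deleted mice. The Cre-controls were at 8.56, 14.1, 23.4 and 16.3 CPM, and only E6578 exceeded every Ager-deleted mouse. Means were 11.1 ± 5.47 and 15.6 ± 6.16 CPM (SD, n = 4 each), a log2 fold change of 0.48 (SE 0.373, 95% interval −0.345 to 1.31) that also failed the exact test (adjusted p = 1).

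Alas2, which supplies haem precursor to the developing red cell, was at 4.70, 14.8, 9.26 and 14.0 CPM in Ager-deleted mice. The Cre-controls were at 6.86, 17.0, 20.6 and 17.1 CPM. As for the beta genes, 3 of 4 controls lay above all Ager-deleted mice and E5386 lay near the bottom. Means were 10.7 ± 4.69 and 15.4 ± 5.94 CPM (SD, n = 4 each), a log2 fold change of 0.53 (SE 0.377, 95% interval −0.312 to 1.36), again not past the exact test (adjusted p = 1).

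**Figure D1:**
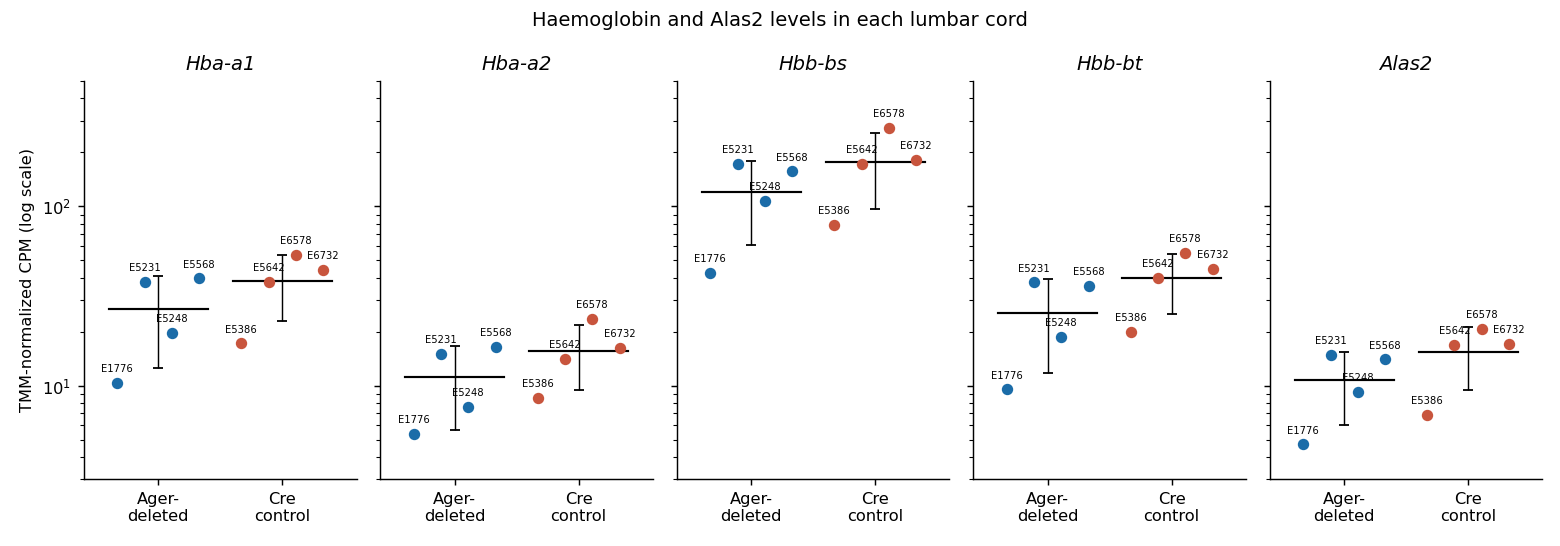
Level of each globin gene and of Alas2 in TMM-normalized CPM on a log axis. Points are mice labelled by ID, the long bar is the mean of 4 mice and the error bar 1 SD. E1776 is the lowest point and E6578 the highest point in all 5 panels, and the genotypes overlap in each.

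Thus 0 of 5 genes passed the exact test at the 0.05 threshold after adjustment, against 0.0719% of all 19470 tested genes (0.0616% higher and 0.0103% lower in controls). None passed in the quasi-likelihood test (0.00514% of all genes), in DESeq2 (0.128%) or when the exact test took its dispersions from the common and tagwise estimates (0.401%). At an unadjusted p under 0.05 the count was also 0 of 5 in the exact test, against 4.26% of all genes, and 0 of 5 in the quasi-likelihood test, against 6.71%. In no gene were the genotypes free of overlap, which 3.88% of all tested genes were. The median log2 fold change was 0.53 over the 5 genes and −0.0069 over all tested genes, and 48.0% of all genes were above 0. An exact two-sided permutation test over the 70 assignments of mice to genotype gave p between 0.171 for Hbb-bt and 0.343 for Hba-a1 and Hbb-bs, where 0.0286 is the smallest p that 4 against 4 mice allow. The 95% intervals together reach from −0.424 to 1.55 on the log2 scale, so the data do not show that the genotypes are alike.

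Summing the copies did not alter this. The alpha pair taken as 1 row gave a log2 fold change of 0.50 (95% interval −0.394 to 1.40) and the beta pair 0.58 (95% interval −0.357 to 1.52). Neither passed the exact test (adjusted p = 1 for both). The size of the difference did depend on which mice were included. Without E1776 the log2 fold changes fell to between 0.24 and 0.37, and without E6578 to between 0.22 and 0.45. Without E5386 and E5642, the controls with muscle transcripts, they were 0.83 to 0.98, and with a skeletal muscle score as covariate 0.76 to 0.91. Without E6732, the control with liver transcripts, they were 0.43 to 0.59. All stayed above 0 and none passed the test in any of these fits.

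**Figure D2:**
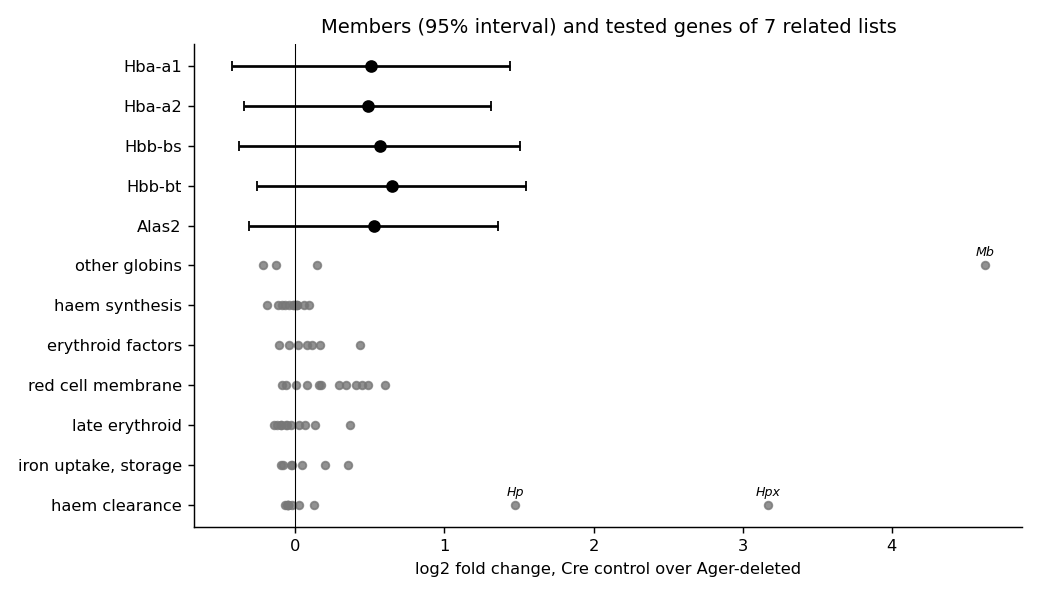
Log2 fold change of Cre-control over Ager-deleted cords for the globin genes and Alas2 (black, with 95% intervals from the quasi-likelihood fit) and for each tested gene of 7 related lists (grey). All 5 black intervals include 0, and most grey points lie near 0 apart from Mb, Hp and Hpx.

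The red cell content of each cord was described by the summed CPM of the 4 globin genes. It was 67.8, 263, 153 and 249 CPM in Ager-deleted E1776, E5231, E5248 and E5568. In Cre-control E5386, E5642, E6578 and E6732 it was 124, 265, 406 and 288 CPM. The ratio of the highest to the lowest mouse was 5.99, and it was 3.88 within the Ager-deleted and 3.26 within the Cre-control mice. On the log2 scale the Cre-control mean exceeded the Ager-deleted mean by 0.622, less than the SD of 0.812 within a genotype. As the genes were chosen together, no p is given for the sum.

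These are small shares of the RNA. The 4 globin genes took 2669 counts in E1776, or 0.00674% of all counts (95% Wilson interval 0.00649% to 0.007%), and 12492 counts in E6578, or 0.0401% (0.0394% to 0.0408%). Counting error was thus far smaller than the difference between these mice. In the middle of the order it was not: E5568 at 0.0249% (0.0244% to 0.0254%) and E5642 at 0.0253% (0.0248% to 0.0258%) had overlapping intervals. The intervals cover counting error only, since reads are not independent molecules.

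Few genes of the cord varied as much between mice of 1 genotype. The within-genotype SD of log2 level was 0.832 for Hbb-bs, 0.789 for Hba-a1, 0.761 for Hbb-bt, 0.667 for Alas2 and 0.636 for Hba-a2, against a median of 0.132 over all tested genes. These SDs exceeded those of 99.0% to 99.4% of tested genes. The geometric mean of 10 endothelial markers lay between 20.3 and 29.4 CPM, a range of 1.45-fold. Dividing summed globin by that mean left a range of 5.77-fold, from 2.67 in E1776 to 15.4 in E6578. Slco1a4, 1 of the 10 markers, was at 67.2 ± 6.56 CPM in Ager-deleted and 97.0 ± 17.5 CPM in Cre-control mice (SD, n = 4 each). It passed in DESeq2 (adjusted p = 0.0444), as 0.128% of all tested genes did. In the exact test it did not pass (adjusted p = 0.0713). The part of vessel content in the globin levels was not tested. Fewer red cells and less globin RNA per red cell cannot be told apart in bulk tissue.

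Per kilobase of exon, Hbb-bs had the highest level, at 155.9 ± 76.1 CPM per kb in Ager-deleted and 230.6 ± 104 CPM per kb in Cre-control mice (SD, n = 4 each). Hbb-bt followed at 36.2 ± 19.4 and 56.8 ± 20.9 CPM per kb, Hba-a1 at 33.1 ± 17.6 and 47.2 ± 19.0, Hba-a2 at 16.7 ± 8.19 and 23.4 ± 9.24, and Alas2 at 4.45 ± 1.95 and 6.41 ± 2.47 CPM per kb. Hbb-bt and Hba-a1 differed by less than the spread between mice. Because reads shared by near copies may be lost or split, the order within and between pairs is uncertain.

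Within a mouse the genes kept close to fixed proportions. Alpha globin CPM divided by beta globin CPM lay between 0.217 in E5248 and 0.301 in E1776, a 1.39-fold range. Hba-a2 over Hba-a1 lay between 0.368 and 0.522, and Hbb-bt over Hbb-bs between 0.174 and 0.255. Alas2 over summed globin lay between 0.0508 in E6578 and 0.0693 in E1776, a 1.36-fold range. These ratios were thus far narrower than the levels themselves. Genotype means were close for each of them, with 0.265 ± 0.0386 and 0.252 ± 0.0152 for alpha over beta and 0.0606 ± 0.00614 and 0.0574 ± 0.00562 for Alas2 over globin (Ager-deleted and Cre-control, SD, n = 4 each).

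Across the 8 mice, log2(CPM + 1) of the 5 genes correlated in all 10 pairs, with Pearson's r between 0.95 and 0.991 and Spearman's rho between 0.81 and 1.0. In exact permutation tests the highest adjusted p over the 10 pairs was 0.00107 for r and 0.0218 for rho. After the 2 mice farthest from the median were left out, r was between 0.919 and 0.991. After each value was centred on its genotype mean, r was between 0.941 and 0.996. The pairs share their libraries, and those within a near-identical pair may share reads. Alas2 is unlinked to the globin clusters and is no copy of them.

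The 10 other genes whose log2 level was most like that of summed globin, among 16076 genes with a mean of at least 1 CPM, were Gtdc1 (r = 0.988), Rbm48 (0.958), Churc1 (0.955), Fam49b (0.954), Vdac2 (0.95), Gabarapl2 (0.947), Pla1a (0.944), Rpl15 (0.941), Snx2 (0.941) and Acp1 (0.937). These are descriptions over 8 mice, picked as the highest of many. They varied over a 1.12-fold to 3.24-fold range, against 4.35-fold to 6.44-fold for the globins and Alas2. None of them was in any of the erythroid, haem or blood cell lists.

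Other globin genes were absent, low or differently spread. The embryonic genes Hba-x, Hbb-bh1 and the minor genes Hbb-bh0 and Hbb-bh2 had 0 counts in every mouse, and embryonic Hbb-y had at most 2, under the floor of 3 counts, which is 0.0730 to 0.0975 CPM. Of 10 other globin genes 4 were tested and 0 passed. The theta-like globin gene Hbq1b was at 0.169 to 0.594 CPM in Ager-deleted and 0.356 to 0.65 CPM in Cre-control mice, highest in E6578 as the adult genes were, on 6 to 23 counts. Hbq1a, too low to be tested at 6 to 17 counts, was at 0.169 to 0.203 CPM in Ager-deleted and 0.219 to 0.413 CPM in Cre-control mice, without overlap. That gap rests on few reads, with 6 to 8 counts in Ager-deleted and 8 to 17 in Cre-control mice. Of all tested genes, 3.88% were also free of overlap. Cygb, encoding cytoglobin, was at 84.4 ± 9.21 CPM in Ager-deleted and 77.1 ± 5.40 CPM in Cre-control mice (SD, n = 4 each). Ngb, encoding the neuronal neuroglobin, was at 8.30 ± 2.13 and 7.13 ± 0.533 CPM. Mb, encoding the muscle oxygen carrier myoglobin, was at 57.4 CPM in E5386 and 36.1 CPM in E5642, the mice with skeletal muscle transcripts, and had a log2 fold change of 4.62 (exact test, adjusted p = 0.103). The part played by muscle in that value was not tested.

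Of the other genes of haem synthesis, 12 of 12 were tested, 0 passed, 5 were above and 7 below 0, and the median log2 fold change was −0.014. Fech, which inserts iron into the porphyrin ring, was at 87.4 ± 3.19 CPM in Ager-deleted and 92.9 ± 3.27 CPM in Cre-control mice. Alas1, the housekeeping counterpart of Alas2, was at 62.0 ± 4.93 and 62.6 ± 2.20 CPM (SD, n = 4 each). It ranged 1.21-fold over the mice, where Alas2 ranged 4.39-fold. Cpox and the mitochondrial iron importer gene Slc25a37 ranged 1.29-fold and 1.24-fold.

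Among erythroid transcription factors and the erythropoietin receptor, 7 of 8 were tested and 0 passed. Lmo2, Zfpm1, Tal1 and Epor, the most abundant of them, ranged from 1.48-fold to 1.84-fold over the mice. Of 13 genes of the red cell membrane and its skeleton, 12 were tested, 0 passed and 10 were above 0, with a median log2 fold change of 0.23. Sptb, Ank1 and Epb41, skeleton genes that are also expressed in neurons, ranged 1.27-fold. Slc4a1, encoding the red cell anion exchanger band 3, ranged 8.76-fold and was at 2.18, 13.3, 7.28 and 12.3 CPM in Ager-deleted mice. In Cre-controls it was at 4.92, 19.1, 5.82 and 16.5 CPM. Its log2 fold change was 0.40 (SE 0.552; exact test, adjusted p = 1). Of 11 late erythroid genes analysed, 0 passed and the median was −0.055. Car2, Prdx2, Ube2o and Bnip3l, the most abundant of these, ranged only 1.22-fold to 1.67-fold over the mice. Car1 and Hemgn, at low levels, ranged 5.31-fold and 7.29-fold.

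Over 7 mice Slc4a1 ranked as summed globin did, with E5642 and E6732 exchanged, and E6578 departed from that order. That control had the highest globin level, yet Slc4a1 there was 0.304 times its level in E5642, where each globin gene in E6578 was 1.37 to 1.67 times and Alas2 1.22 times that in E5642. Slc4a1 divided by summed globin was 0.0143 in E6578 and 0.0322 to 0.0722 in the other 7 mice. Further genes were examined after their values were seen. Klf1, encoding the erythroid factor that activates beta globin, had 5 counts in E6578 against 14 to 46 in the other mice, and Gata1 had 0 against 5 to 22.

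Over the 3 lists of erythroid factors, membrane and late genes, 14 of 30 tested genes varied more than 3-fold over the mice, a threshold set after the values were seen. All 14 were lower in E6578 than in E5642, whereas all 5 of the globins and Alas2 were higher. Lying below E5642 for the 14 genes was not particular to E6578. It held for 14 of 14 in E1776, E5248 and E5386, for 13 in E5231 and E5568, and for 10 in E6732. Of the 14, 9 were highest in E5642, 4 in E6732, 1 in E5231 and none in E6578. At the low end the sets met: E1776 was lowest for 9 of the 14 and for 5 of 5 of the globins and Alas2. The difference in E6578 rests on 1 mouse and has no test.

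**Figure D3:**
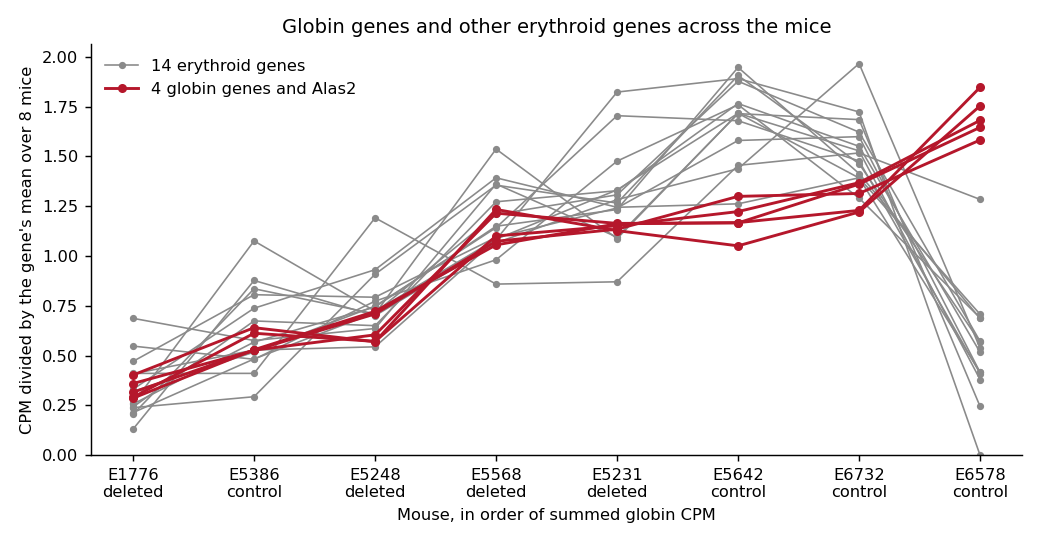
CPM of each gene divided by its mean over the 8 mice, with mice in order of summed globin. Red lines are the 4 globin genes and Alas2, grey lines the 14 other erythroid genes that varied more than 3-fold. Grey lines broadly track the red ones up to E6732, and in E6578 the red lines reach 1.58 to 1.85 times their mean while 13 of 14 grey lines fall below theirs.

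**Figure D4:**
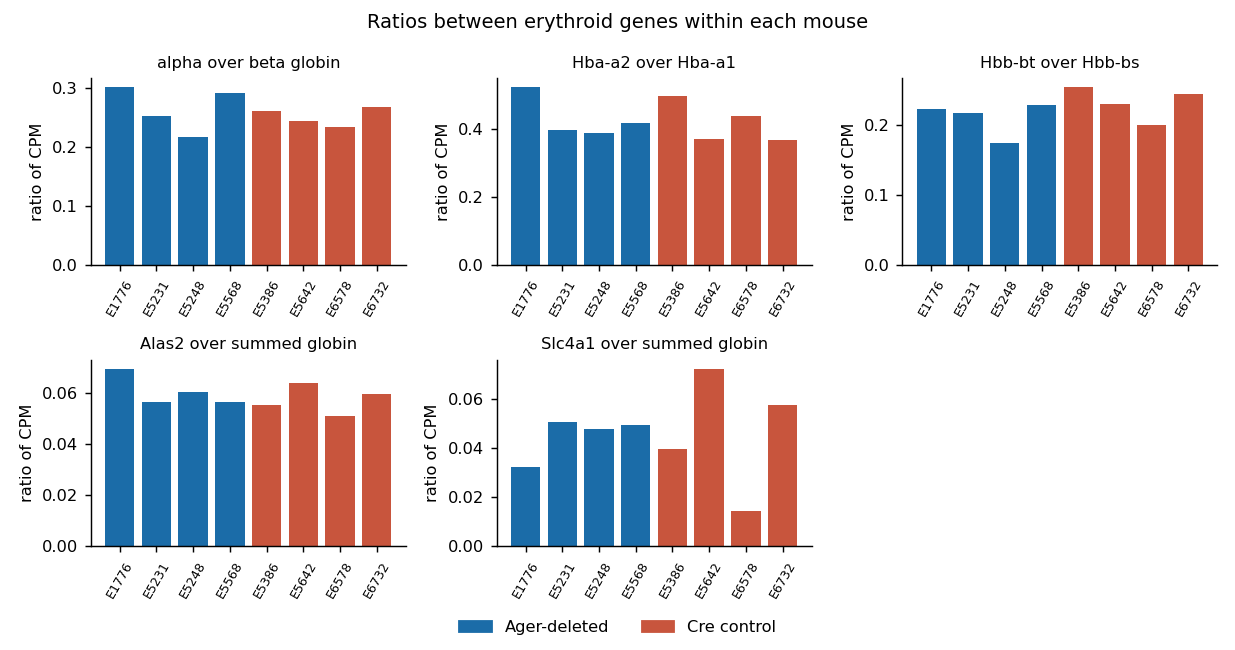
Ratios of CPM between erythroid genes in each mouse (blue Ager-deleted, red Cre-control, 1 bar per mouse). The 3 ratios among globin genes and that of Alas2 to globin stay within 1.46-fold, whereas Slc4a1 over globin ranges 5.04-fold, with E6578 lowest.

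Iron handling and haem clearance, which deal with the iron and haem of red cells in tissue, were followed through 7 and 10 tested genes, none of which passed. Fth1, the ferritin heavy chain that stores iron, was at 5910 ± 1089 CPM in Ager-deleted and 6084 ± 828 CPM in Cre-control mice (SD, n = 4 each). Tfrc, the transferrin receptor, was at 116.6 ± 25.9 and 133.8 ± 14.0 CPM. Hmox1, the inducible enzyme that degrades haem, was at 44.5 ± 13.0 and 43.8 ± 6.38 CPM. It was highest, at 54.1 CPM, in E1776, the mouse with the least globin, and lowest, at 25.5 CPM, in E5248, also low in globin. In E5231 and E5642 it was at 51.35 CPM. Over all 7 lists related to globin and haem, 0 of 63 tested genes passed in the exact test, the quasi-likelihood test or DESeq2. Of all tested genes 0.0719%, 0.00514% and 0.128% passed, in the same order. With shares this small, 0 of 63 does not set these lists apart. Before adjustment, 4 of the 63 genes had an exact p under 0.05, where 4.26% of all genes did. By quasi-likelihood there were 5, where 6.71% of all genes were under 0.05. The median log2 fold change of the 63 genes was 0.0027. Hp and Hpx, encoding the plasma carriers of haemoglobin and haem and singled out after their values were seen, had log2 fold changes of 1.47 and 3.17. Hpx was at 14.8 CPM in E6732, the mouse with liver transcripts, and at no more than 0.69 CPM in the other 7. Hp was at 13.1 CPM in E6732 but also at 11.3 CPM in E5386 and 6.98 CPM in E5642, which had no such liver level, and at 1.12 to 5.53 CPM in the rest.

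Markers of other blood and marrow cells were set beside the globins. The summed level of 8 neutrophil genes was 89.4, 242, 93.2 and 162 CPM in Ager-deleted and 259, 231, 103 and 158 CPM in Cre-control mice. That of 8 granulocyte precursor genes of the marrow, among them Ngp and Ltf, was 16.6, 127, 36.0 and 79.7 CPM in Ager-deleted and 115, 132, 32.1 and 73.6 CPM in Cre-control mice. Both lists were low in E1776 and E5248 together with globin, but low also in E6578, where globin was highest, and high in E5386, where globin and Slc4a1 were low. Each gene of both lists was on average higher in controls (8 of 8 and 8 of 8), 0 passed, and the median log2 fold changes were 0.50 and 0.39. Platelet genes summed to 8.92 to 13.4 CPM in Ager-deleted and 9.52 to 21.9 CPM in Cre-control mice, B cell genes to 31.2 to 42.8 and 35.4 to 50.4 CPM, and bone genes to 22.7 to 31.2 and 26.9 to 34.2 CPM, with 0 passing in each list. Of their tested genes, 7 of 8, 6 of 6 and 6 of 7 were on average higher in controls, in the same order. Over all tested genes 48.0% were above 0 and 0.0719% passed the exact test. With a share this small, 0 passing does not set any of these lists apart. The part of marrow or blood cells other than red cells in the globin values was not tested.

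**Figure D5:**
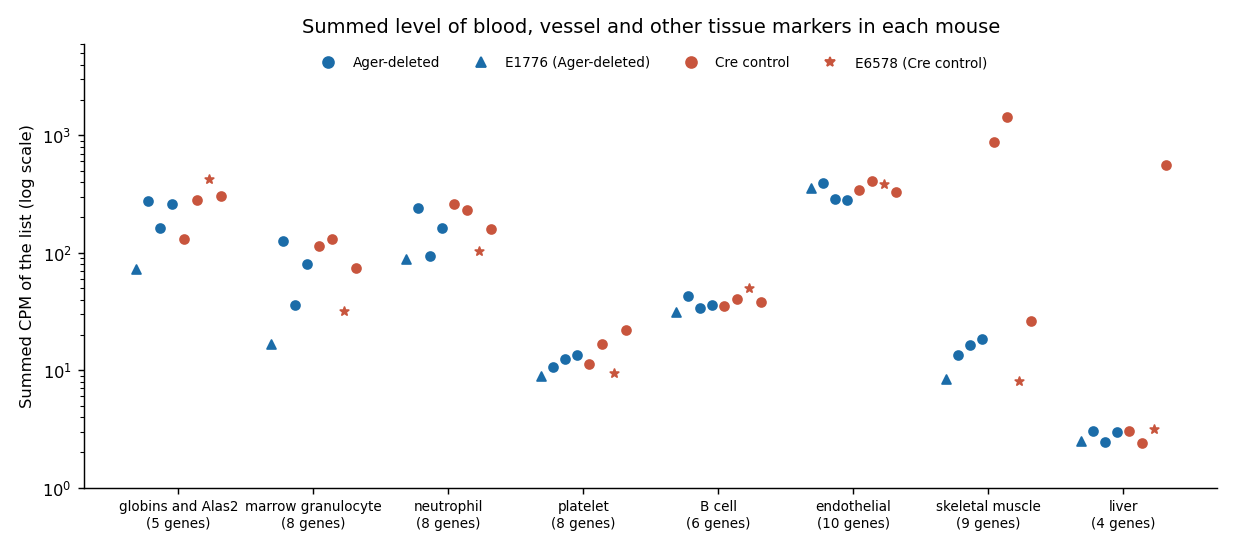
Summed CPM of the tested genes of each marker list in each mouse on a log axis (blue Ager-deleted, red Cre-control, triangle E1776, star E6578). Globins and Alas2 sum to 72.5 CPM in E1776 and 427 CPM in E6578. The marrow granulocyte list is low in both of these mice, and the skeletal muscle and liver lists are high in 2 and 1 controls.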

How the data were processed

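The authors trimmed reads (Trimmomatic 0.36), aligned them to mm10 with STAR 2.7.3a and counted reads per gene with featureCounts (Subread 1.6.3), per the labels and the study's methods, and deposited raw counts. Strand and multi-mapping settings are not given in the sources used here. The authors also deposited log2 values, log2 TMM-normalized CPM, used only as a check: all 19470 genes matched the filter used here, with a largest difference of 4.78e-06. Libraries were stranded and poly(A)-selected. Counts were filtered with filterByExpr (minimum count 10), TMM-normalized and tested over all genes in edgeR 4.0.16 (R 4.3.3) with exactTest and Benjamini-Hochberg adjustment at 0.05. SE and 95% intervals came from the quasi-likelihood fit. DESeq2 1.42.0 and limma-voom (limma 3.58.1) were alternatives. Permutation used log2(CPM + 1). Code was tested on simulated data. Each GEO sample is a separate mouse, grouped by its title. Genes and lists were chosen with earlier results of these data known. Named were the 5 genes, of each list any gene past the threshold and at most 4 of the most abundant, the 10 most alike, and Ager. Other genes named were chosen after their values were seen.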

Additional observations from a re-analysis of the deposited data

Results flagged for a closer look

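Among 34 sets of 4 mice examined (17 quantities in each genotype), 1 held a mouse far from the others by Dixon's criterion, where chance gives about 1 in 20. Slc4a1 divided by summed globin was 0.0322 in the Ager-deleted mouse E1776 and 0.0475 to 0.0506 in the other Ager-deleted mice. The gap took 0.832 of the group's range, just over the critical value for 4 samples. E1776 was also the Ager-deleted mouse with the lowest globin, Slc4a1 and marrow granulocyte levels.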

How the results depend on the processing

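No paired analysis was possible because the labels give mouse IDs and no replicate numbers shared between genotypes. All 5 genes kept a log2 fold change above 0 and none passed the threshold in 21 of 21 alternatives, with values of 0.24 to 0.88 for Hba-a1, 0.22 to 0.84 for Hba-a2, 0.27 to 0.94 for Hbb-bs, 0.37 to 0.98 for Hbb-bt and 0.28 to 0.83 for Alas2. With 4 mice per genotype and a within-genotype SD of 0.812, the summed globin difference ranged from 0.208 without E1776 to 1.08 without E5386 and E5642. Over all genes, 14 passed in the exact test. The count was 5 with a minimum count of 50, 25 in DESeq2, 78 where common and tagwise dispersions were used, 67 without E5386 and E5642, and 3 to 98 when 1 mouse was left out. It was 1 in the quasi-likelihood test, in limma-voom, and in the quasi-likelihood test with a skeletal muscle or an endothelial covariate. Of the 63 related genes 1 passed where those dispersions were used (Mb), without E5386 and E5642 (Hpx), and in single leave-outs (0 to 1, Mb without E6578 or without E6732). The causes were not tested.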
